A study of Mus musculus with 24 samples.

Results

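The comparison described here asks which genes slow/slow cells induced or silenced more than wild-type (WT) cells did when embryonic stem cells (ESCs) entered the neural progenitor (NPC) stage. Poly(A)+ RNA sequencing counts were used from 12 of the 24 libraries of the series, 3 each of WT ESCs, slow/slow ESCs, WT NPCs and slow/slow NPCs. Per the study's methods, the replicates came from independent differentiation experiments. For every gene the log2 change from ESC to NPC was estimated in each genotype, and the WT change was subtracted from the slow/slow change. This value is called the difference below. A positive difference means stronger induction or weaker silencing in slow/slow cells, and a negative difference means the opposite.

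All 12 cultures derive from the mouse ESC line E14. Slow/slow cells carry the substitution R749H on both alleles of Polr2a, the gene of the largest subunit of RNA polymerase II, and were made by targeting each allele in turn. ESCs of both genotypes were grown in serum-free medium with LIF and inhibitors of MEK and GSK3, known as 2i, which holds them in the naive pluripotent state. NPCs were adherent cultures collected on day 7 after these factors had been withdrawn. WT cells had been plated at 10000 cells per cm2 and slow/slow cells at 30000 cells per cm2. Genotype and plating density therefore cannot be told apart at the NPC stage, and a clonal difference between the lines cannot be told apart from the mutation at either stage.

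When LIF and the inhibitors are removed, ESCs switch off the naive transcription factors, pass through a formative state that resembles the early epiblast, and in the absence of serum can then take up a neural fate. The first neural cells express Sox family factors, N-cadherin and nestin. Retinoic acid, Wnt and FGF signals then assign them a position along the body axis, which is read out by the Hox genes in the hindbrain and spinal cord, while Hedgehog and BMP signals set their dorsoventral identity.

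Total counts in the 12 libraries ranged from 35249977 to 77285813, and expression is given as CPM, a gene's count relative to the library total after TMM scaling. No pair of libraries was identical, and replicates differed by more than counting noise (chi-square per gene from 3.9 to 40.7). In the first principal component (66.7% of the variance) the stages separated, and in the second (21.2%) the genotypes. Genes of chromosomes 8 and 15 were shifted between genotypes at both stages (median log2 slow/slow over WT of 0.45 and -0.60 in ESCs, and 0.49 and -0.57 in NPCs), but their median differences were 0.06 and 0.07, against 0.05 for all genes. The 5 Y-linked genes tested were lower in slow/slow cells, with medians of -6.13 in ESCs and -7.30 in NPCs, and 0 of them passed for the difference.

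The stage label was checked against marker genes. The summed level of 7 ESC markers tested, Pou5f1 and Nanog among them, was 6393 to 6844 CPM in WT ESCs and was still 2431 to 2516 CPM in WT NPC cultures, against 1631 to 1854 CPM in slow/slow NPC cultures. The 7 NPC markers tested (Sox3, Pax6, Nes, Fabp7, Hes5, Msi1 and Cdh2) summed to 106 to 112 CPM in WT and 320 to 420 CPM in slow/slow NPC cultures. In ESCs their sum was 93.9 to 101 CPM in WT and 108 to 118 CPM in slow/slow libraries, so the WT sum rose little. Of the 7 markers, 3 had risen in WT and 6 in slow/slow cells. Fabp7 and Hes5 were at 0.0755 to 0.438 CPM in WT NPC libraries. "NPC" is therefore used as the name of the culture stage and not of a pure cell type.

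Markers of other lineages were also present at this stage. The 7 endoderm markers summed to 286 to 329 CPM in WT and 390 to 516 CPM in slow/slow NPC cultures, from at most 20 CPM in ESCs. The 7 trophoblast markers summed to 1039 to 1131 CPM in WT and 349 to 494 CPM in slow/slow NPC cultures, most of it from the keratins Krt8 and Krt18, which other epithelia share. The 6 mesoderm markers summed to 4.81 to 6.76 CPM in WT and 8.85 to 10.5 CPM in slow/slow NPC cultures. This sum had not risen from ESCs, where it was 5.74 to 7.06 CPM in WT and 11.4 to 12.4 CPM in slow/slow libraries. The marker sums of these lineages differed between genotypes at the NPC stage, and those of endoderm and mesoderm already did in ESCs. Their part in the results below was not tested. In bulk RNA, fewer cells of a type and less RNA per cell cannot be told apart.

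Of 16627 genes tested, 4091 (24.6%) had a difference between genotypes at an FDR under 0.05 in edgeR's quasi-likelihood test. The difference was positive for 2262 genes (13.6%) and negative for 1829 (11.0%), and it reached at least 2-fold for 1115 and 793 of these. The median difference of all genes was 0.05, and 54.1% of genes were above 0. The fit pooled its spread over all 24 libraries of the series. With the 12 ESC and NPC libraries alone the estimated spread was smaller (biological coefficient of variation 0.0657 against 0.164) and 7534 of 15626 genes (48.2%) passed, 3518 up and 4016 down, among them 4028 of the 4091. The excess of positive over negative genes therefore did not hold in that fit. Of the 4091 genes, 2708 (66.2%) passed throughout when the 12 libraries were left out in turn. Counts in the gene lists below are to be read against the shares of all genes that passed. These are 24.6% in the fit of all libraries and 48.2% with the 12 libraries alone.

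The stage alone moved far more genes. On this transition 10913 genes (65.6%) changed in WT cells, 34.0% of those tested upward and 31.6% downward. In slow/slow cells 10358 (62.3%) did so, 33.9% upward and 28.4% downward. The genotypes differed at 6720 genes (40.4%) in ESCs, with slow/slow higher at 18.5% and lower at 21.9%, and at 9423 genes (56.7%) in NPCs, with slow/slow higher at 29.3% and lower at 27.4%. Among the 4091 genes with a difference, the genotypes were apart in NPCs alone for 1838, in ESCs alone for 897 and at both stages for 1278, and for 78 they were apart at neither. Of the 1278 genes, 493 had opposite directions at the 2 stages. These contrasts share their libraries, and the counts sort the genes without being independent of one another.

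The differences were sorted by what each genotype did. Slow/slow cells induced 1177 genes more than WT cells, of which 686 had also risen in WT and 491 had no WT change that passed. They silenced 889 genes less, of which 318 had still fallen in slow/slow cells. In the other direction, slow/slow cells silenced 815 genes more, 398 of them fallen in WT as well, and induced 843 genes less, 382 of them still risen in slow/slow cells. Opposite movement was rarer. There were 190 genes that rose in slow/slow and fell in WT cells and 149 that fell in slow/slow and rose in WT cells. The median difference was 1.24 for the genes induced more and -0.92 for those silenced more.

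**Figure D1:**
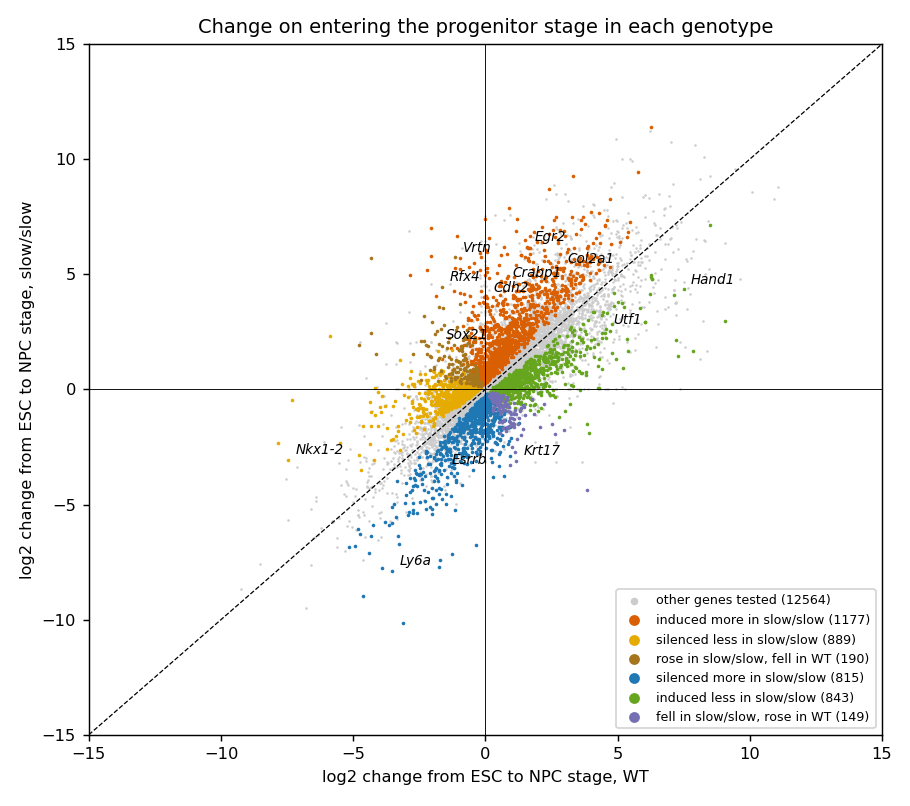
Log2 change from ESC to NPC in WT cells (x axis) and in slow/slow cells (y axis) for the 16627 genes tested, coloured by class, with the numbers of genes in the legend and equality as the dashed line. The genes induced more in slow/slow cells (1177) lie above the line at the upper right, and those silenced more (815) lie below it at the lower left.

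Naive pluripotency genes were silenced further in slow/slow than in WT cells. Of 17 naive genes tested, 10 had a negative and 0 a positive difference, against 11.0% and 13.6% of all genes, and the count stayed at 10 in every fit that left out a library. The median difference of the list was -1.22. In WT cells 14 of the 17 fell, and in slow/slow cells 16 did. The median change of all 17 was -1.50 in WT and -2.74 in slow/slow cells.

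Esrrb, a nuclear receptor that maintains naive self-renewal, stood at 1378, 1352 and 1506 CPM in the WT ESC libraries and at 1053, 1060 and 1028 CPM in slow/slow ESCs. In NPCs it stood at 474, 506 and 454 CPM in WT and at 104, 91.7 and 83.2 CPM in slow/slow libraries. The genotypes did not overlap at either stage, and the gap widened on differentiation. The difference was -1.93 ± 0.18 (SE, FDR 2.79e-07).

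Nanog, a core factor of the naive network, measured 387, 380 and 385 CPM in WT NPC libraries and 125, 142 and 119 CPM in slow/slow NPC libraries. In ESCs the 6 libraries lay between 889 and 1045 CPM, and the genotype contrast there did not pass (difference -1.41 ± 0.20, FDR 4.12e-05). Tbx3, a T-box factor that sustains the naive state, retained 186, 206 and 180 CPM in WT NPCs but 35.5, 29.7 and 30.5 CPM in slow/slow NPCs (difference -2.21 ± 0.31, FDR 3.31e-05). Fgf4, the autocrine ligand that primes ESCs to differentiate, started level at 341 to 360 CPM in all 6 ESC libraries. It ended at 119, 125 and 126 CPM in WT and 52.6, 52.5 and 51.9 CPM in slow/slow NPCs (difference -1.25 ± 0.15, FDR 5.83e-06).

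Dppa3, a maternal factor expressed in naive ESCs, had no WT change that passed. Its level was 3.27, 3.97 and 4.51 CPM in WT NPCs and 0.815, 0.716 and 0.789 CPM in slow/slow NPCs, after 4.0 to 5.05 CPM in the 6 ESC libraries (difference -2.30 ± 0.31, FDR 2.67e-05). Gbx2, a homeobox gene placed in this list, was the 1 member with a difference above 0 (1.58 ± 0.76, FDR 0.141), and it did not pass. With the 12 libraries alone all 17 members passed, 16 of them downward and Gbx2 upward.

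Genes of the core and formative states did not follow the naive genes. Of 16 tested, 5 had a positive and 1 a negative difference (median 0.40). Pou5f1, the core factor shared by naive and primed cells, fell from 1617 to 1972 CPM in the ESC libraries to 620 to 660 CPM in WT and 701 to 791 CPM in slow/slow NPCs, with a difference of 0.19 ± 0.31 (FDR 0.713). The positive members included Fgf5 and Dnmt3b, which rose in both genotypes. Fgf5, the epiblast FGF ligand, was at 1.68, 2.13 and 1.51 CPM in WT and 12.2, 9.59 and 9.12 CPM in slow/slow NPCs (difference 3.28 ± 0.43, FDR 1.69e-05). Dnmt3b, a de novo DNA methyltransferase, was at 256, 260 and 258 CPM in WT and 898, 873 and 798 CPM in slow/slow NPCs (2.42 ± 0.47, FDR 0.000864).

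Otx2, a homeobox factor of the formative epiblast and anterior brain, measured 22.2 to 26.1 CPM in WT and 45.3 to 72.6 CPM in slow/slow NPCs (1.24 ± 0.25, FDR 0.00101). The exception was Utf1, a chromatin factor of primed cells. It was higher in slow/slow ESCs (34.1, 43.6 and 31.7 CPM against 12.7, 16.1 and 16.6 CPM) and lower in slow/slow NPCs (248, 204 and 215 CPM against 340, 383 and 352 CPM), a difference of -1.96 ± 0.24 (FDR 8.36e-06). With the 12 libraries alone 12 of the 16 passed, 9 upward and 3 downward.

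Neural progenitor genes were induced more in slow/slow cells. Of 17 tested, 7 had a positive and 1 a negative difference, and the median was 1.50. In slow/slow cells 14 of the 17 rose and 0 fell, while in WT cells 9 rose and 2 fell.

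Cdh2, which encodes N-cadherin, the adhesion molecule of the neural plate, did not change in WT cells by the test. It measured 13.8, 14.5 and 13.4 CPM in WT ESCs and 16, 13.3 and 13.8 CPM in WT NPCs. In slow/slow cells it went from 7.26, 6.91 and 8.14 CPM to 103, 109 and 138 CPM. The slow/slow libraries lay below all WT libraries in ESCs and above them in NPCs, and the difference was 3.93 ± 0.52 (FDR 1.91e-05).

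Sox21, a SoxB2 factor of neural progenitors, moved in opposite directions. It fell in WT cells from 16.5, 16 and 16 CPM to 5.08, 4.42 and 4.87 CPM and rose in slow/slow cells from 11.4, 12 and 10.4 CPM to 33.8, 48.2 and 50.5 CPM (difference 3.73 ± 0.54, FDR 4.99e-05). It shares exon sequence with Gm4675 on the other strand. Nes, which encodes the intermediate filament nestin, rose in both genotypes and more in slow/slow cells. WT libraries went from 18.0 to 19.3 CPM to 32.3 to 34.1 CPM and slow/slow libraries from 29.1 to 32.2 CPM to 80.5 to 115 CPM (difference 0.79 ± 0.19, FDR 0.00417).

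Pax6, a homeobox regulator of neural progenitors, did not pass for the difference although its level in NPCs was far apart. It rose from 0.162 to 0.228 CPM to 4.07 to 4.63 CPM in WT libraries and from 0.774 to 1.27 CPM to 36.4 to 43.8 CPM in slow/slow libraries. The slow/slow libraries were higher at both stages, and the difference of 0.89 ± 0.51 (FDR 0.226) was within its error. Prom1, which encodes the apical membrane protein prominin, had the negative difference in this list (-0.79 ± 0.16, FDR 0.00106). Its NPC libraries did not overlap, at 40.8 to 42.8 CPM in WT and 43.1 to 51.1 CPM in slow/slow cells, but the genotypes differed by the test in ESCs alone. Slc1a3, a glial glutamate transporter present in radial glia, reached 10.3 to 11.2 CPM in WT and 18.9 to 20.7 CPM in slow/slow NPCs (1.50 ± 0.30, FDR 0.000989).

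**Figure D2:**
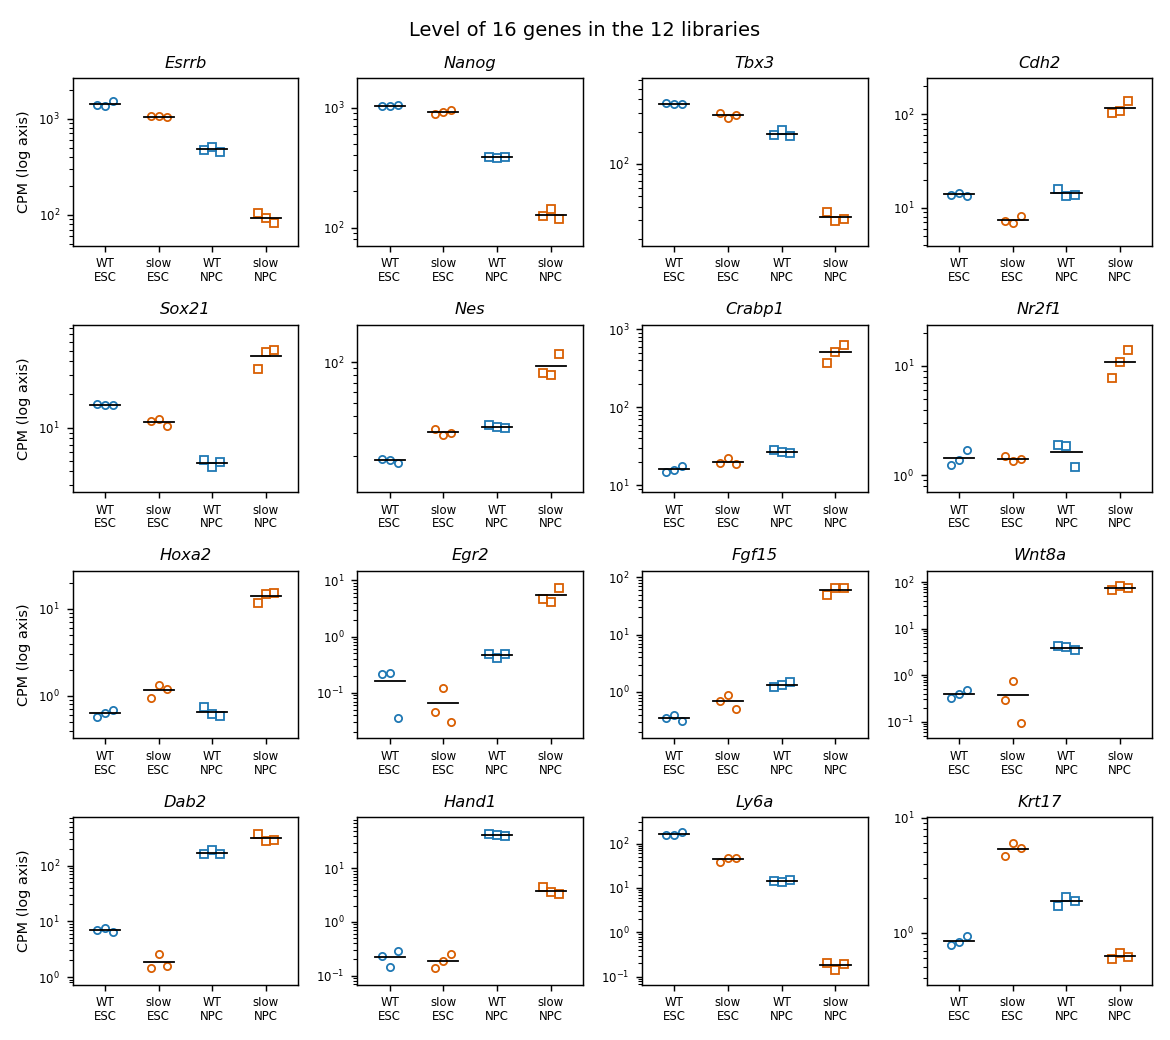
Level in each of the 12 libraries (CPM on a log axis) of 16 genes named in the text, with WT in blue, slow/slow in orange, circles for ESCs, squares for NPCs and black lines for means of 3 libraries. In Cdh2, Nr2f1 and Hoxa2 the WT libraries stay near their ESC level and the slow/slow NPC libraries lie above all others.

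Genes of neurogenesis and early neurons also had more positive than negative differences, at lower levels. Of 25 tested, 8 had a positive and 1 a negative difference (median 0.89). By gene, 12 rose and 7 fell in WT, and 17 rose and 3 fell in slow/slow cells. Their sum fell in WT, from 275 to 330 CPM in ESCs to 137 to 152 CPM in NPCs. In slow/slow cells the sum did not rise, at 406 to 471 CPM in ESCs and 391 to 451 CPM in NPCs. The sum of the 5 neuron markers tested fell in both genotypes. Insm1, a zinc finger factor of newborn neurons, was at 0.0359 to 0.158 CPM in the 6 ESC libraries. In NPCs it reached 1.48, 1.39 and 1.51 CPM in WT and 30.9, 33.1 and 33.0 CPM in slow/slow libraries, with no overlap (difference 3.72 ± 0.75, FDR 0.00122). Nhlh1, a helix-loop-helix gene of early neurons, fell in WT from 0.988 to 1.09 CPM to 0.195 to 0.291 CPM and rose in slow/slow cells from 0.181 to 0.434 CPM to 0.893 to 1.48 CPM (4.07 ± 0.72, FDR 0.000348). Stmn2, a microtubule regulator of neurons, fell in both genotypes and less in slow/slow cells, ending at 61.4 to 69.2 CPM in WT and 136 to 155 CPM in slow/slow NPCs (0.87 ± 0.22, FDR 0.00606). With the 12 libraries alone 16 of 24 genes passed, 14 upward and 2 downward.

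Retinoic acid genes were positive for 11 and negative for 1 of 23 (median 1.01). Retinoic acid is made from vitamin A by retinol and retinal dehydrogenases, carried in the cytoplasm by binding proteins, sensed by the RAR and RXR nuclear receptors and degraded by Cyp26 enzymes. With each library left out in turn 10 or 11 members passed, and with the 12 libraries alone 13 were positive and 3 negative.

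Uptake and binding proteins showed the clearest separation. Crabp1, a cytoplasmic retinoic acid binding protein found in the hindbrain and neural crest, stood at 14.9 to 22.4 CPM in all 6 ESC libraries. In NPCs it was at 28, 26.9 and 26.1 CPM in WT and at 374, 514 and 633 CPM in slow/slow libraries (difference 3.90 ± 0.36, FDR 2.61e-07). Its relative Crabp2, which delivers the ligand to RAR, rose in both genotypes, to 23.4, 19.7 and 20.8 CPM in WT and 78.8, 107 and 119 CPM in slow/slow cells (2.03 ± 0.42, FDR 0.00156). Stra6, the cell surface receptor that takes up retinol, ended at 7.07 to 8.39 CPM in WT and 22.9 to 26.7 CPM in slow/slow cells (2.60 ± 0.41, FDR 0.000131).

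Nr2f1, an orphan nuclear receptor that retinoic acid induces in embryonal carcinoma cells, did not change in WT cells by the test. Its WT libraries lay between 1.20 and 1.89 CPM at both stages, and slow/slow cells rose from 1.35 to 1.49 CPM to 7.79, 11 and 14 CPM (2.75 ± 0.34, FDR 7.59e-06). Nr6a1, another orphan receptor, rose in both genotypes, to 198 to 199 CPM in WT and 212 to 222 CPM in slow/slow cells, and its difference was 0.09 ± 0.14 (FDR 0.698).

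Rarb and Cyp26a1 are textbook direct targets of the retinoic acid receptors. Their promoter stretches are shown because, among genes of this list with a matched promoter, they alone held the repeat searched for. RefSeq promoters of GRCm38.p6 were searched from 250 bases before to 50 bases after each start site. A direct repeat of the receptor's hexamer with 5 bases between was sought on both strands, taken here as the retinoic acid response element. It was found in 32 of 32851 windows (0.0974%). Other spacings and more distant sequence were not searched. Promoters were matched for 19 of the 23 retinoic acid genes tested, and 2 held the repeat. The stretches around it follow on the gene's strand, with the repeat in capitals.
Rarb, chr14:16575506-16575535, minus strand: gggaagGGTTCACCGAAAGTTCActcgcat
Cyp26a1, chr19:37697770-37697799, plus strand, repeat on the opposite strand: taaagaTGAACTTTGGGTGAACTaatttgt

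Neither gene passed for the difference. Rarb, a retinoic acid receptor, ended at 5.43, 5.28 and 5.79 CPM in WT and 9.12, 7.68 and 10.0 CPM in slow/slow NPCs (difference 0.71 ± 0.36, FDR 0.164), and it shares exon sequence with Top2b on the other strand. Cyp26a1, which degrades retinoic acid, ended at 11.8, 11.6 and 10.9 CPM in WT and 20.7, 15.4 and 17.4 CPM in slow/slow NPCs (1.93 ± 0.77, FDR 0.0738). In both genes the NPC libraries of the genotypes did not overlap. A match in this window is a description of the sequence, and no binding was measured here.

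**Figure D3:**
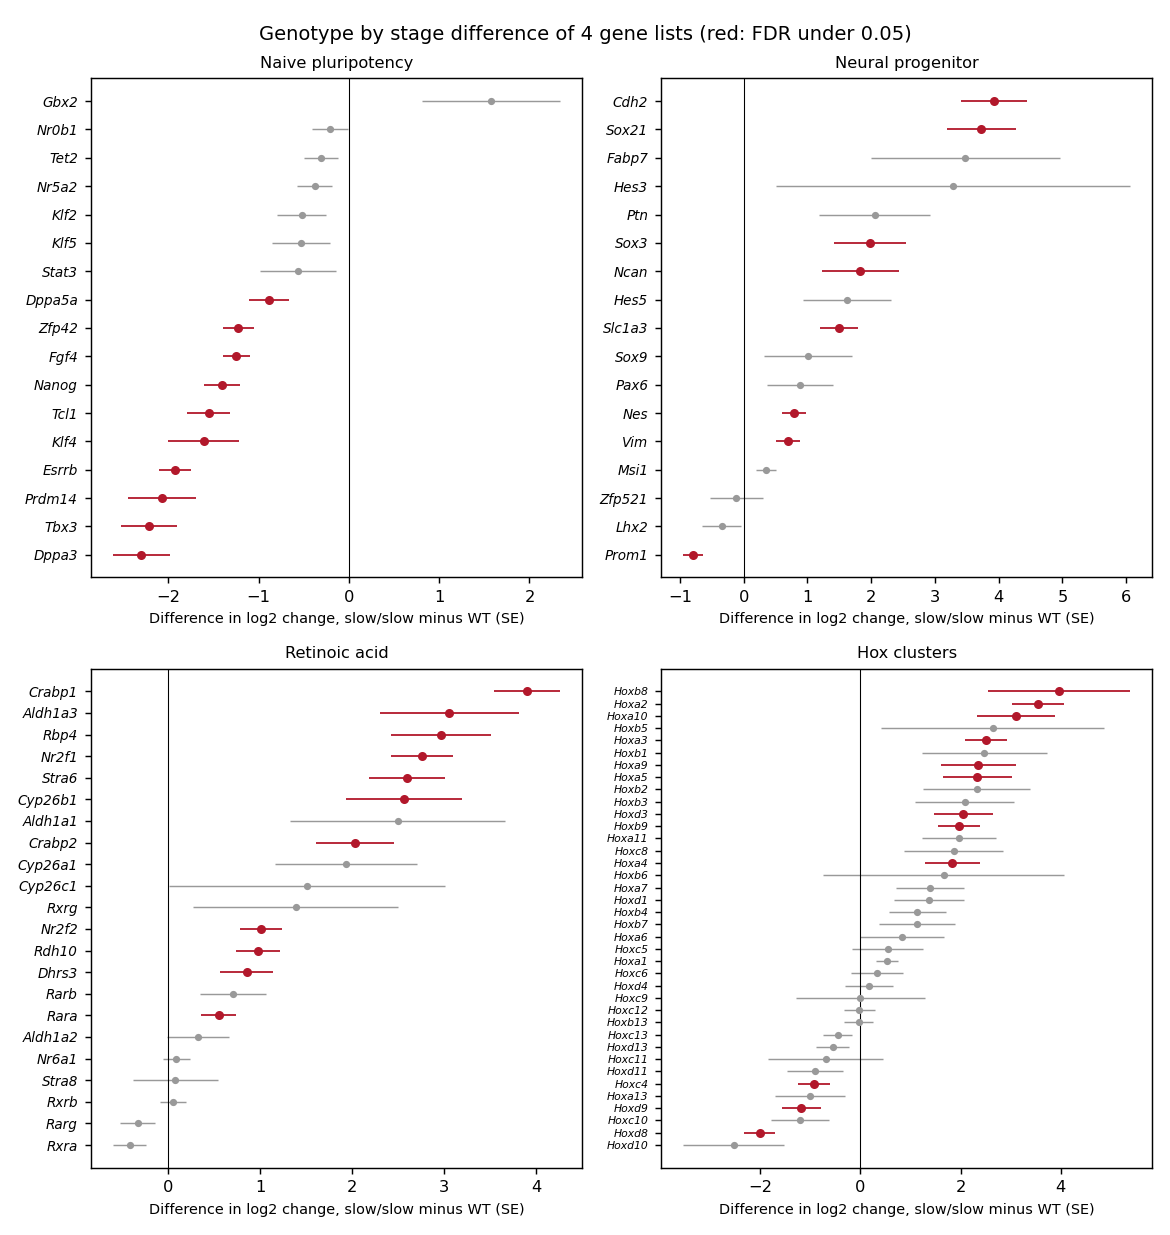
Difference in log2 change (slow/slow minus WT, x axis, with SE) for tested genes (y axis) of 4 lists, in red where the FDR was under 0.05. All 10 red genes of the naive pluripotency list lie below 0, and the 11 red retinoic acid genes drawn and 9 of 12 red Hox genes lie above 0.

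Hox genes that passed were more often positive than negative. Hox proteins set position along the hindbrain and trunk, with low paralogue numbers anterior. Of 38 Hox genes tested, 9 had a positive and 3 a negative difference (median 1.14), with 8 to 12 genes passing when a library was left out and 26 passing, 19 upward and 7 downward, with the 12 libraries alone. The 9 included Hoxb9 as well as Hoxa2, Hoxa3, Hoxa4, Hoxa5, Hoxa9 and Hoxa10, the Hoxa genes being named after their values were seen. Clusters were not compared by the share of their tested genes that passed. Whether positive genes concentrate in a cluster was not tested.

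Hoxa2, a Hox gene of the anterior hindbrain, stayed at 0.577 to 0.749 CPM in the 6 WT libraries. It rose from 0.950, 1.33 and 1.21 CPM to 11.7, 14.7 and 15.4 CPM in slow/slow libraries (difference 3.54 ± 0.52, FDR 5.8e-05). Hoxa3 rose in slow/slow cells to 21.0, 24.5 and 24.1 CPM, against 3.15 to 4.01 CPM in WT NPCs (2.51 ± 0.42, FDR 0.000191). Both share exon sequence with Gm28308 on the same strand, so reads could have been split between them. Hoxb9, a posterior trunk gene, fell 2.99-fold in WT, while its slow/slow estimate was a 1.32-fold rise. It ended at 2.54 to 2.64 CPM in WT and 5.06 to 6.70 CPM in slow/slow NPCs (1.97 ± 0.42, FDR 0.00203). Hoxd8 was the clearest exception, at 2.81, 3.09 and 3.00 CPM in WT and 1.22, 1.05 and 0.813 CPM in slow/slow NPCs (-2.01 ± 0.32, FDR 0.000116).

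Egr2, a zinc finger gene of hindbrain segments that is also an immediate early gene, was among the genes with the largest differences of those induced more. It lies on chromosome 10 (67535475 to 67542188, plus strand, GRCm38) and reached 0.499, 0.407 and 0.495 CPM in WT and 4.67, 4.15 and 7.32 CPM in slow/slow NPCs (4.61 ± 0.79, FDR 0.000256). In ESCs it was near 0, at 0.0359 to 0.230 CPM in WT and 0.0310 to 0.123 CPM in slow/slow libraries. The genotypes overlapped there and their contrast did not pass (FDR 0.243).

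Of 15 caudal and neuromesodermal genes 10 passed, with 5 upward and 5 downward (median -0.38). Fgf8, the FGF ligand of the tail bud and of the midbrain-hindbrain boundary, went to 1.19, 1.09 and 1.27 CPM in WT and 7.79, 9.31 and 6.83 CPM in slow/slow NPCs (4.05 ± 0.45, FDR 2.98e-06). Sp8, a zinc finger factor downstream of FGF and Wnt signals, rose in slow/slow cells from 3.96, 3.25 and 3.50 CPM to 29.7, 35.3 and 35.5 CPM, while its WT libraries lay between 0.705 and 1.23 CPM at both stages (3.66 ± 0.27, FDR 1.73e-08). Wnt3a, the caudal Wnt ligand, was higher in slow/slow ESCs (3.35, 3.89 and 4.43 CPM against 0.611 to 0.760 CPM) and overlapped with WT in NPCs, with a difference of -2.42 ± 0.32 (FDR 1.73e-05). Cdx1, a homeobox activator of trunk Hox genes, fell from 186 to 232 CPM in the 6 ESC libraries to 5.49 to 6.01 CPM in WT and 1.55 to 2.02 CPM in slow/slow NPCs (-1.67 ± 0.27, FDR 0.000134). Wnt8a, a posterior Wnt ligand, rose to 4.16, 4.04 and 3.45 CPM in WT and 67.1, 81.4 and 74.7 CPM in slow/slow NPCs (4.22 ± 1.17, FDR 0.012).

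Forebrain and midbrain genes were positive for 7 and negative for 1 of 22 (median 1.25). The count of 8 fell to 4 or 5 in each fit without slow/slow ESC replicate 1 or 3, slow/slow NPC replicate 2 or 3, WT ESC replicate 1 or 2, or WT NPC replicate 1 or 3. No fit that left out a library gave more than 7. Levels were low. Irx1, an Iroquois factor of the midbrain and hindbrain, ended at 1.11 to 1.21 CPM in WT and 4.94 to 7.20 CPM in slow/slow NPCs (2.60 ± 0.51, FDR 0.000987).

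Dorsoventral patterning genes were positive for 12 and negative for 4 of 29 (median 0.61). The count of 16 fell to between 9 and 13 in the fits that left out a library, with 7 to 11 positive. It was 10 without slow/slow ESC replicate 1 and 9 without WT ESC replicate 1. Gli1, the transcription factor that Hedgehog signalling induces, showed a cross-over. Its ESC libraries were at 6.73, 6.89 and 6.85 CPM in WT and 18.2, 18.1 and 16.7 CPM in slow/slow cells. Its NPC libraries were at 23.4, 22.8 and 22.4 CPM in WT and 13.5, 13.3 and 12.4 CPM in slow/slow cells. Gli1 thus rose in WT and fell in slow/slow cells (-2.18 ± 0.14, FDR 2.5e-09), and it shares exon sequence with Arhgap9 on the other strand.

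Gsx2, a homeobox gene of the ventral forebrain, crossed in the same way, from 0.201 to 0.413 CPM to 0.603 to 0.855 CPM in WT and from 1.70 to 1.89 CPM to 0.194 to 0.345 CPM in slow/slow cells (-3.85 ± 0.49, FDR 1.4e-05). Irx5, an Iroquois homeobox gene, ended at 1.64, 1.49 and 1.84 CPM in WT and 17.4, 23.0 and 23.0 CPM in slow/slow NPCs (3.19 ± 0.50, FDR 0.000117). Gdf7, a roof plate BMP ligand, fell in WT and rose in slow/slow cells, but from levels under 1 CPM (2.19 ± 0.40, FDR 0.000453).

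**Figure D4:**
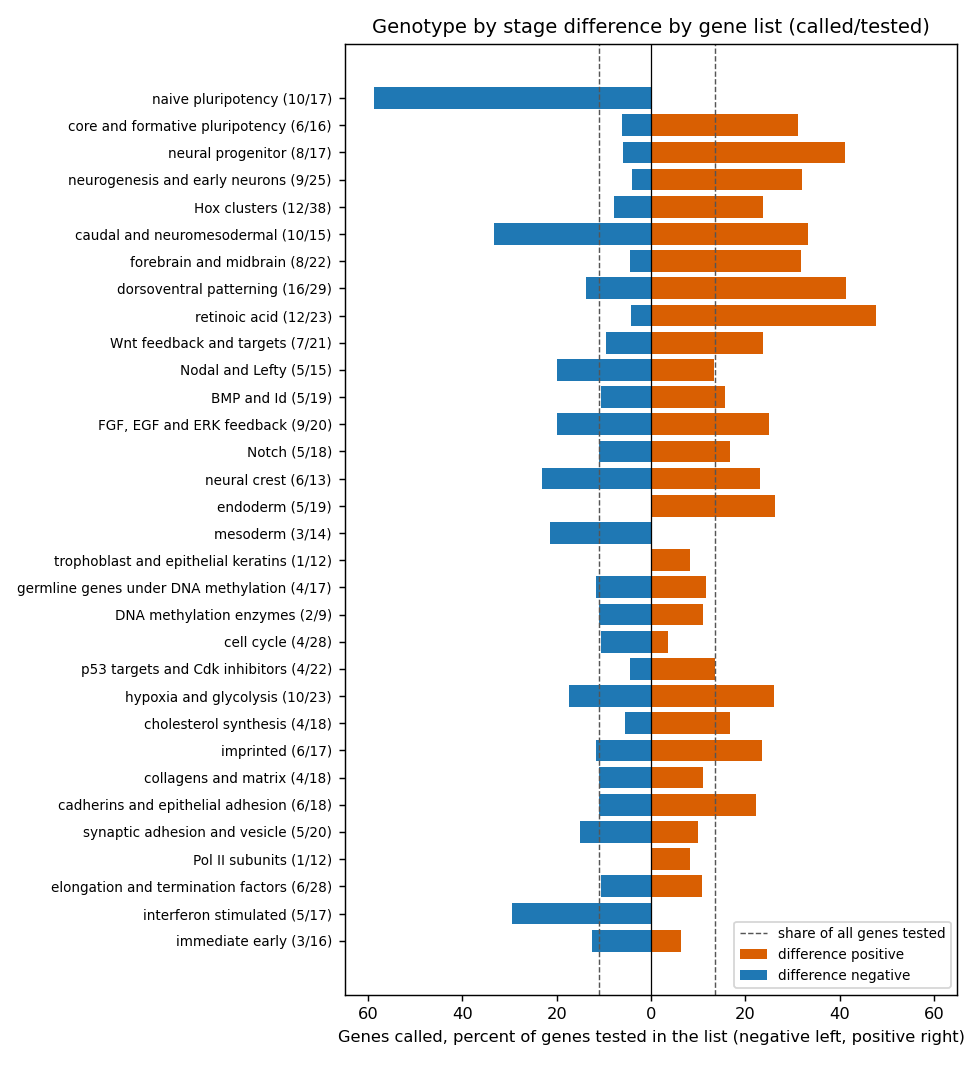
Share of the tested genes of each of 32 lists that had a positive (right, orange) or negative (left, blue) difference, with genes called and tested in brackets and dashed lines at the shares of all genes tested (13.6% and 11.0%). The naive pluripotency list has 10 genes on the left and 0 on the right, and the retinoic acid list 11 on the right and 1 on the left.

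Signalling genes were mixed in direction. Among 21 Wnt feedback genes and targets, 5 were positive and 2 negative, and 16 passed with the 12 libraries alone, 11 upward and 5 downward. Lef1, the nuclear effector of canonical Wnt signals, stayed at 0.717 to 1.36 CPM in the 6 WT libraries and went from 3.59, 3.93 and 3.62 CPM to 69.0, 70.4 and 74.5 CPM in slow/slow cells (3.56 ± 0.63, FDR 0.000358). Frzb, a secreted Wnt antagonist, started lower in slow/slow ESCs and ended higher, at 2.07 to 2.93 CPM in WT and 5.63 to 7.39 CPM in slow/slow NPCs (2.63 ± 0.24, FDR 2.21e-07). Dkk1, an inhibitor of Wnt receptors, ended at 3.31 to 3.98 CPM in WT and 9.35 to 13.3 CPM in slow/slow NPCs (2.23 ± 0.42, FDR 0.000624). Apcdd1, also a Wnt inhibitor, fell in both genotypes to levels that overlapped in NPCs, from a higher start in WT ESCs (1.09 ± 0.17, FDR 0.000118).

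FGF and ERK feedback genes were positive for 5 and negative for 4 of 20, and for 10 and 4 with the 12 libraries alone. Fgf15, an FGF ligand of the neural tube, rose to 1.21, 1.30 and 1.50 CPM in WT and 50.2, 65.7 and 65.3 CPM in slow/slow NPCs (4.46 ± 0.68, FDR 8.55e-05). Etv1, an ETS factor downstream of FGF, fell in WT to 7.70 to 8.90 CPM and rose in slow/slow cells to 20.2 to 21.7 CPM (2.65 ± 0.34, FDR 1.47e-05). The receptor gene Fgfr1 rose in slow/slow cells from 167 to 181 CPM to 261 to 277 CPM and had no WT change that passed (0.81 ± 0.12, FDR 4.02e-05). Egfr, the epidermal growth factor receptor, rose in both genotypes, to 29.4, 30.1 and 32.3 CPM in WT and 18.1, 14.6 and 14.8 CPM in slow/slow NPCs. Its slow/slow libraries were lower at both stages, and the difference of 0.79 ± 0.63 did not pass (FDR 0.399), although it did with the 12 libraries alone (0.73, FDR 0.00112).

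Among 19 BMP and Id genes 3 were positive and 2 negative (26.3%, against 24.6% of all genes). These became 6 and 6 with the 12 libraries alone. Id2, an inhibitor of helix-loop-helix factors, rose more in slow/slow cells (11.9 to 13.3 CPM in WT and 43.3 to 57.8 CPM in slow/slow NPCs, difference 2.21 ± 0.23, FDR 1.25e-06). Fst, which encodes the activin antagonist follistatin, fell in WT and rose in slow/slow cells (3.12 ± 0.38, FDR 8.27e-06). The ligand gene Bmp4 started at 25.7, 30.5 and 28.2 CPM in slow/slow ESCs against 6.03, 6.60 and 7.67 CPM in WT, and ended at 4.22 to 6.13 CPM against 11.4 to 13.1 CPM (-3.23 ± 0.56, FDR 0.000295). Fst and Bmp4 each share exon sequence with a predicted gene on the other strand.

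Among 15 Nodal genes 2 were positive and 3 negative, and 3 passed in each fit without slow/slow ESC replicate 1 or 2, slow/slow NPC replicate 3, WT ESC replicate 1 or 2, or WT NPC replicate 3. Pcsk6, a protease that activates Nodal, was silenced more in slow/slow cells (84.0 to 96.4 CPM in WT and 25.5 to 27.0 CPM in slow/slow NPCs, difference -1.76 ± 0.17, FDR 4.51e-07), and it overlaps Gm45213 on the same strand. Lefty2, a Nodal inhibitor, was at 152 to 170 CPM in slow/slow ESCs against 6.71 to 7.75 CPM in WT, and fell in slow/slow cells to 55.6 to 69.8 CPM (-1.11 ± 0.25, FDR 0.00298).

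Among 18 Notch genes 3 were positive and 2 negative (27.8%, against 24.6% of all genes). These became 5 and 5 with the 12 libraries alone. The ligand gene Dll1 rose more in slow/slow cells (18.5 to 19.3 CPM in WT and 40.5 to 46.9 CPM in slow/slow NPCs, difference 2.01 ± 0.41, FDR 0.00124). Rbpj, the DNA-binding partner of Notch, rose less, to 426, 456 and 435 CPM in WT and 229, 208 and 205 CPM in slow/slow NPCs (-0.72 ± 0.11, FDR 0.000111). The receptor gene Notch3 had overlapping NPC levels and a lower start in slow/slow ESCs (1.40 ± 0.22, FDR 0.000118).

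Other lineages were compared by the same lists. Of 19 endoderm genes, 14 rose in WT and 17 in slow/slow cells. A positive difference was found for 5 and a negative one for 0 (26.3%, against 24.6% of all genes, median 1.19). With the 12 libraries alone 9 of 18 passed, 8 upward and 1 downward, against 48.2% of all genes. Dab2, an endocytic adaptor of the extraembryonic endoderm, rose from 6.31 to 7.57 CPM to 158, 187 and 162 CPM in WT and from 1.45 to 2.60 CPM to 367, 275 and 287 CPM in slow/slow cells. The difference for Dab2 was 2.75 ± 0.25 (FDR 2.01e-07). The summed level of all 19 genes overlapped in NPCs, at 4366 to 5100 CPM in WT and 4081 to 5661 CPM in slow/slow cultures.

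Of 14 mesoderm genes 3 were negative and 0 positive (21.4%, against 24.6% of all genes). Only 1 passed without slow/slow ESC replicate 2 or without WT ESC replicate 3. With the 12 libraries alone 5 of 13 passed, all downward (38.5%, against 48.2% of all genes). Their sum was 251 to 280 CPM in WT and 123 to 170 CPM in slow/slow NPC cultures. Acta2, smooth muscle actin, made up most of it and rose to 172, 143 and 162 CPM in WT and 94.7, 63.3 and 89.4 CPM in slow/slow cells (-1.38 ± 0.41, FDR 0.0179). Hand1, a helix-loop-helix factor of lateral mesoderm and trophoblast, rose to 44.4, 41.4 and 39.7 CPM in WT and 4.44, 3.58 and 3.28 CPM in slow/slow cells. Its difference of -3.16 ± 1.12 (FDR 0.0439) was lost in 11 of 12 fits that left out a library. Msgn1, a marker of presomitic mesoderm, had at most 3 counts in every library. Of 12 trophoblast and keratin genes 1 passed, Gata3 upward (1.92 ± 0.55, FDR 0.0149), although their sum was 1402 to 1502 CPM in WT and 599 to 736 CPM in slow/slow NPC cultures. The direction did not hold with the 12 libraries alone, where 7 of 11 passed, 3 upward and 4 downward, among them Krt8 (-1.45, FDR 1.15e-08) and Krt18 (-1.42, FDR 1.1e-06) downward.

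Of 13 neural crest genes 3 were positive and 3 negative, and 3 and 5 with the 12 libraries alone. Ngfr, the neurotrophin receptor p75, was higher in slow/slow ESCs (159, 156 and 141 CPM against 55.0, 57.2 and 62.2 CPM) and lower in slow/slow NPCs (6.75 to 6.88 CPM against 11.4 to 13.6 CPM), with a difference of -2.29 ± 0.35 (FDR 7.87e-05). Mitf, the master factor of pigment cells, fell in both genotypes and further in slow/slow cells (-1.47 ± 0.22, FDR 8.7e-05).

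Of 28 cell cycle genes 4 passed (14.3%, against 24.6% of all genes), with 1 upward and 3 downward. This share was not below that of all genes with the 12 libraries alone, where 16 passed, 7 upward and 9 downward, against 48.2% of all genes. The sum of the 28 genes was 7023 to 7071 CPM in WT and 7942 to 8068 CPM in slow/slow NPCs. The exception was Ccnd2, the D-type cyclin of neural progenitors, which rose to 15.6, 17.9 and 14.3 CPM in WT and 100.4, 120 and 118 CPM in slow/slow NPCs (2.44 ± 0.17, FDR 1.08e-08). Its relative Ccnd3 fell in slow/slow cells alone by the test (-1.07 ± 0.26, FDR 0.00464). The 22 p53 targets and Cdk inhibitors had 3 positive and 1 negative difference, turned to 4 and 8 with the 12 libraries alone, and dropped to 2 genes passing in each fit without slow/slow ESC replicate 1 or 3, slow/slow NPC replicate 1 or 3, or WT NPC replicate 1. Sesn2, a stress-induced gene, fell in WT and did not change by the test in slow/slow cells (1.16 ± 0.16, FDR 3.6e-05).

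Hypoxia and glycolysis genes were positive for 6 and negative for 4 of 23, and for 11 and 5 with the 12 libraries alone. The glucose transporter gene Slc2a1 rose to 619, 623 and 603 CPM in WT and 1102, 1138 and 1155 CPM in slow/slow NPCs (1.05 ± 0.18, FDR 0.000296). Hk1, a hexokinase gene, fell further in slow/slow cells (102 to 108 CPM in WT and 33.6 to 36.1 CPM in slow/slow NPCs, -1.0 ± 0.13, FDR 1.47e-05). Egln3, an oxygen sensor, rose more in slow/slow cells (2.12 ± 0.28, FDR 1.69e-05) and Pdk1, which restrains pyruvate oxidation, rose less (-1.39 ± 0.23, FDR 0.000167) from a higher start. Cholesterol synthesis genes passed for 4 of 18 (10 with the 12 libraries alone), although 14 of them were higher in slow/slow cells at each stage.

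Interferon-stimulated genes were negative for 5 and positive for 0 of 17 (median -1.35), and 3 passed in each fit without slow/slow ESC replicate 2, slow/slow NPC replicate 2 or 3, WT ESC replicate 1 or 2, or WT NPC replicate 3. With the 12 libraries alone 11 of 16 passed, all downward. B2m, the light chain of MHC class I, rose to 135, 124 and 151 CPM in WT and 39.6, 37.0 and 35.9 CPM in slow/slow NPCs (-1.36 ± 0.37, FDR 0.0102). Ddx58, the RNA sensor RIG-I, was higher in slow/slow ESCs (24.9 to 28.5 CPM against 7.55 to 7.73 CPM) and overlapped in NPCs (-1.96 ± 0.59, FDR 0.0197).

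Imprinted genes were positive for 4 and negative for 2 of 17, and for 7 and 5 with the 12 libraries alone. Dio3, a paternally expressed deiodinase, fell further in slow/slow cells (7.35 to 8.72 CPM in WT and 0.907 to 1.75 CPM in slow/slow NPCs, -2.64 ± 0.35, FDR 1.7e-05). Magel2, from the Prader-Willi region, rose to 0.998, 1.06 and 1.20 CPM in WT and 13.7, 13.6 and 13.4 CPM in slow/slow cells (2.58 ± 0.59, FDR 0.00322). Of 17 germline genes 2 were positive and 2 negative (23.5%, against 24.6% of all genes). These became 3 and 8 with the 12 libraries alone. Of 9 DNA methylation enzymes Tet3 was positive (0.90 ± 0.15, FDR 0.000282) and Zfp57, which protects imprints, negative (-0.97 ± 0.18, FDR 0.000501).

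Matrix and adhesion genes were divided. Of 18 collagen and matrix genes 2 were positive and 2 negative (22.2%, against 24.6% of all genes). These became 6 and 5 with the 12 libraries alone. In the fits of all groups 2 passed, both upward, without any 1 of slow/slow ESC replicate 3, slow/slow NPC replicate 1, WT ESC replicate 2 or WT NPC replicate 1. Col2a1, the cartilage and notochord collagen that neuroepithelium also expresses, rose to 51.5, 54.8 and 51.0 CPM in WT and 130, 137 and 171 CPM in slow/slow cells (2.42 ± 0.21, FDR 9.45e-08). Of 18 cadherin and epithelial adhesion genes 4 were positive and 2 negative, but 5 and 9 of 17 were with the 12 libraries alone. Grhl2, an epithelial grainyhead factor, was at 3.15 to 3.75 CPM in slow/slow ESCs against 22.0 to 24.2 CPM in WT, and the genotypes did not differ by the test in NPCs (2.89 ± 0.30, FDR 1.23e-06).

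Synaptic genes were positive for 2 and negative for 3 of 20 (25%, against 24.6% of all genes). These became 2 and 6 of 17 with the 12 libraries alone. Cntnap2, a neurexin-like adhesion gene that is among the longest in the genome, ended at 2.85 to 3.15 CPM in WT and 5.06 to 6.41 CPM in slow/slow NPCs (1.73 ± 0.28, FDR 0.000146). Nlgn2, a postsynaptic adhesion gene, rose in WT and fell in slow/slow cells (-0.87 ± 0.19, FDR 0.00264). Of 16 immediate early genes 3 passed (6 of 14 with the 12 libraries alone, 1 of them upward), with Egr2 upward and Nr4a1 (-1.23 ± 0.28, FDR 0.00303) and Junb (-1.40 ± 0.35, FDR 0.0068) downward.

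The genes with the largest differences in each class are given next, with coordinates of GRCm38. Among genes induced more, Btbd17 (chromosome 11, 114791217 to 114795945) reached 1.44 to 1.46 CPM in WT and 18.6, 20.1 and 19 CPM in slow/slow NPCs (difference 4.93 ± 0.87, FDR 0.000374). Nsg2, a neuronal vesicle protein gene (chromosome 11, 32000463 to 32059202), rose in slow/slow cells from 0.248 to 0.552 CPM to 5.76 to 8.18 CPM and had no WT change that passed (4.64 ± 0.40, FDR 1.17e-07). St8sia2, which adds polysialic acid to the neural cell adhesion molecule (chromosome 7, 73939119 to 74013690), rose from 0.203 to 0.217 CPM to 5.52 to 8.40 CPM in slow/slow cells (4.60 ± 0.47, FDR 1.02e-06). Its WT libraries lay between 0.889 and 1.75 CPM at both stages.

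Among genes silenced less, Nkx1-2, a homeobox gene of the caudal epiblast (chromosome 7, 132594878 to 132599637), fell from 12.4 to 13.6 CPM to 0.0450 to 0.104 CPM in WT and from 54.9 to 57.9 CPM to 5.55, 7.47 and 7.20 CPM in slow/slow cells (4.40 ± 0.77, FDR 0.000354). It shares exon sequence with Gm16764 on the other strand. Ttn, the muscle gene titin (chromosome 2, 76703980 to 76982547), fell in WT from 42.8 to 58.3 CPM to 2.43, 2.78 and 2.49 CPM, whereas slow/slow NPCs kept 32.2, 34.4 and 31.9 CPM (3.80 ± 0.53, FDR 3.16e-05). It too has a predicted gene, Gm13938, on its other strand. Eya1, a transcriptional phosphatase of sensory placodes and kidney, fell in both genotypes (3.17 ± 0.35, FDR 2.51e-06).

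The other genes of this class were apart in ESCs and not in NPCs by the test. P2rx7, an ATP-gated channel gene (chromosome 5, 122643911 to 122691432), was at 131, 130 and 120 CPM in WT ESCs and 10.1, 7.81 and 7.65 CPM in slow/slow ESCs. NPC levels overlapped, at 6.48 to 7.53 CPM and 7.52 to 10.8 CPM (4.22 ± 0.20, FDR 1.01e-10). Gpnmb, a lysosomal glycoprotein gene, was at 11 to 11.6 CPM in WT and 1.21 to 1.55 CPM in slow/slow ESCs, and at 1.48 to 1.65 CPM and 1.68 to 2.12 CPM in NPCs (3.36 ± 0.40, FDR 6.25e-06).

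Among genes that rose in slow/slow and fell in WT cells, Vrtn, which controls vertebral number in mammals (chromosome 12, 84641019 to 84651455), went from 2.73 to 3.13 CPM to 1.18 to 1.44 CPM in WT and from 0.588 to 0.920 CPM to 43.5, 40.8 and 37.6 CPM in slow/slow cells (6.87 ± 0.65, FDR 3.85e-07). Rfx4, a winged-helix factor of the developing brain (chromosome 10, 84756062 to 84906538), went from 1.08 to 1.12 CPM to 0.300 to 0.458 CPM in WT and from 0.372 to 0.798 CPM to 9.26, 13.0 and 17.6 CPM in slow/slow cells (6.09 ± 0.58, FDR 4.08e-07). In both genes the WT libraries were higher in ESCs and the slow/slow libraries in NPCs, without overlap. Efhd1, a mitochondrial calcium-binding protein gene (4.36 ± 0.60, FDR 2.62e-05), and P2rx3, the ATP-gated channel of sensory neurons (3.77 ± 0.39, FDR 1.12e-06), shared this form. They have exon sequence in common with Efhd1os and Ssrp1 on the other strand.

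Among genes silenced more, Ly6a, which encodes the surface antigen Sca-1 (chromosome 15, 74994877 to 74998031), fell from 155, 157 and 180 CPM to 14.2, 13.7 and 15.1 CPM in WT and from 38.9, 47.1 and 46.4 CPM to 0.207, 0.143 and 0.197 CPM in slow/slow cells (-4.35 ± 0.40, FDR 2.79e-07). Sox15, a Sox factor of ESCs and placenta (chromosome 11, 69655314 to 69656727), had no WT change that passed and fell in slow/slow cells from 16.7 to 20.3 CPM to 3.12, 2.82 and 2.56 CPM (-3.26 ± 0.56, FDR 0.000277). Il34, a ligand of the CSF1 receptor, started level at 17.8 to 22.3 CPM in the 6 ESC libraries and ended at 4.93 to 5.38 CPM in WT and 0.334 to 0.595 CPM in slow/slow NPCs (-3.40 ± 0.46, FDR 2.25e-05). Lrrc34, a leucine-rich repeat gene (-3.48 ± 0.35, FDR 7.14e-07), and Klk10, a kallikrein protease gene (-3.29 ± 0.47, FDR 4.67e-05), completed this group. Sox15, Il34 and Lrrc34 have exons that overlap Mpdu1, predicted genes and Lrriq4 on the other strand.

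Among genes induced less, Esx1, an X-linked homeobox gene of the placenta (chromosome X, 137115397 to 137122083), rose to 58.9, 67.8 and 58.8 CPM in WT and 6.09, 4.70 and 5.50 CPM in slow/slow NPCs (-3.05 ± 0.31, FDR 9.87e-07). Lpar3, a receptor for lysophosphatidic acid, rose to 10.6 to 11.3 CPM in WT and 4.66 to 5.68 CPM in slow/slow cells (-3.10 ± 0.52, FDR 0.000218). Mmp23, a membrane-bound metalloproteinase gene, rose to 17.7 to 19 CPM in WT and 3.25 to 4.04 CPM in slow/slow cells (-3.20 ± 0.76, FDR 0.00447). Asb9, a SOCS box gene, rose in WT to 4.62 to 5.97 CPM and was at 0 in 2 of 3 slow/slow NPC libraries (-5.81 ± 1.13, FDR 0.000855). Hand1 also belonged here.

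Among genes that fell in slow/slow and rose in WT cells, Col9a2, a collagen gene of cartilage (chromosome 4, 121039385 to 121055322), went from 31.2 to 36.4 CPM to 63.4 to 71.1 CPM in WT and from 55.7 to 62.6 CPM to 12, 9.67 and 9.29 CPM in slow/slow cells (-3.50 ± 0.53, FDR 8.46e-05). Krt17, a basal keratin gene (chromosome 11, 100256217 to 100261029), went from 0.775 to 0.934 CPM to 1.73 to 2.07 CPM in WT and from 4.63 to 5.99 CPM to 0.595 to 0.668 CPM in slow/slow cells (-4.26 ± 0.52, FDR 7.92e-06). Ptrf, which encodes the caveolar coat protein cavin (-2.73 ± 0.55, FDR 0.00114), and AC125149.6 (-4.21 ± 0.52, FDR 8.35e-06), a gene without coordinates in the annotation used, crossed in the same way. Fbxo36, an F-box gene, was lower in slow/slow libraries at both stages, at 1.90 to 2.23 CPM against 4.07 to 4.36 CPM in ESCs and 0.453 to 0.567 CPM against 9.75 to 11.4 CPM in NPCs (-3.33 ± 0.74, FDR 0.00253).

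Several other genes named above have exons that overlap a gene on the other strand, and strand use in the counting was not stated, so their reads may be shared. They are Ccnd2, Ccnd3, Dll1, Ell2, Fgf15, Fgfr1, Gata3, Gbx2, Grhl2, Hes5, Hoxa4, Krt8, Lef1, Notch3, Otx2, Pou5f1, Prom1 and Slc2a1.

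Some genes were at or near absence in a group, so that their fitted differences depend on the method's prior count and are no bounds. Tmem154, a membrane protein gene, had 0 counts in the 3 slow/slow ESC libraries and 3.70 to 8.02 CPM in slow/slow NPCs, a mean at least 58.3-fold higher than a floor of 3 counts per ESC library, which covers counting error only. Its difference of 5.12 ± 1.54 (FDR 0.0216) did not pass with the 12 libraries alone (4.89, FDR 0.109), nor without slow/slow ESC replicate 1 or 2 or WT ESC replicate 1. Enpp2, which makes lysophosphatidic acid, went to 0.728 to 0.770 CPM in WT and 2.88 to 9.24 CPM in slow/slow NPCs (4.77 ± 1.15, FDR 0.00483). Aldh1a7, a retinal dehydrogenase relative, and Tnfsf11, the cytokine RANKL, reached 4.92 to 7.64 CPM and 5.15 to 6.21 CPM in slow/slow NPCs against 0.285 to 0.458 CPM for both in WT. Oas1g, an interferon-induced gene, and Obox6, an oocyte homeobox gene, were at 0.0477 CPM or less in slow/slow NPCs and at 0.483 to 0.728 CPM in WT NPCs.

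The mutated gene itself had no difference that passed in the fit of all 24 libraries. Polr2a (chromosome 11, 69733997 to 69758637, minus strand) fell in both genotypes, from 687 to 738 CPM to 277, 335 and 306 CPM in WT and from 674 to 763 CPM to 380, 364 and 380 CPM in slow/slow cells. Its difference was 0.31 ± 0.23 (FDR 0.355) and passed with the 12 libraries alone (0.25, FDR 0.0442). Gene-level counts cannot tell the alleles apart, so the genotype labels were not checked by them. With the 12 libraries alone 6 of 12 genes of polymerase II subunits passed, 4 upward and 2 downward, against 48.2% of all genes. In the fit of all libraries 1 of the 12 passed, Polr2l (0.57 ± 0.20, FDR 0.0443), and it was lost in 10 of 12 fits that left out a library. Of 28 elongation and termination factors 3 were positive and 3 negative (21.4%, against 24.6% of all genes). These became 6 and 6 with the 12 libraries alone. Ell2, an elongation factor, fell in WT and rose in slow/slow cells (0.96 ± 0.20, FDR 0.00153). Ctr9, a subunit of the Paf1 complex, rose in WT to 201 to 226 CPM and had no slow/slow change that passed, at 129 to 133 CPM in slow/slow NPCs (-0.66 ± 0.17, FDR 0.0072).

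Gene span was examined because the substitution lies in the elongating enzyme. Span is the distance from first to last annotated base of a gene. Of 530 genes that span over 300 kb, 25.1% had a positive and 6.42% a negative difference, and their median difference was 0.36. Of 4294 genes of up to 10 kb, 10.9% were positive and 10.6% negative, with a median of 0.03. The share of positive genes was 12.2%, 14.3% and 19.7% in the bins between. The longest genes had a median log2 slow/slow over WT of -0.34 in ESCs and 0.16 in NPCs, and rose on differentiation by a median of 0.60 in WT and 1.23 in slow/slow cells. They are also expressed at a lower level, with a median of 1.61 CPM against 8.31 to 27.8 CPM in the other bins, and the part of expression level in this pattern was not tested. With the 12 libraries alone 36.1% of 435 long genes were positive and 14.9% negative. In that fit the shares were 19.2% and 25.4% for genes of up to 10 kb, and 22.5% and 25.7% for all genes.

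**Figure D5:**
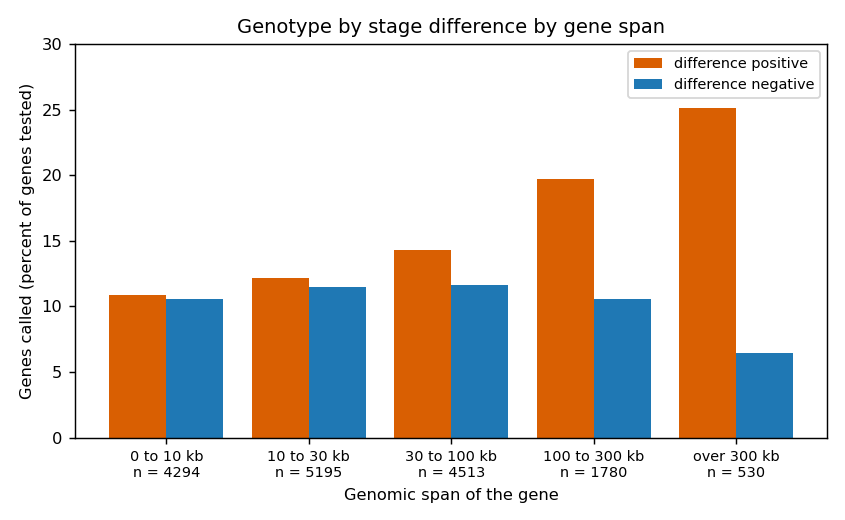
Percent of tested genes with a positive (orange) or negative (blue) difference (y axis) by genomic span of the gene in GRCm38 (x axis), with the number of genes under each bin. The positive share is 10.9% in the shortest and 25.1% in the longest bin, and the negative share is 10.6% and 6.42%.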

How the data were processed

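Poly(A)+ RNA was sequenced by the authors as stranded paired-end libraries, mapped to mm9 with vast-tools, and the authors deposited unnormalized gene-level read counts. The deposited tables also hold the authors' length-scaled values and, for their own comparisons, log2 fold changes and FDR values, none of which were used. No per-sample column was without a labelled sample (0 unused). Strand use in the counting and its annotation version are not given in the sources used here. The submitters' processing notes name bcl2fastq 2.17.1.14.

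Of 22667 genes listed, 1114 had no value and 21553 had counts. Genes were filtered by group with filterByExpr, which left 16627, and scaled by TMM. Counts of all 24 libraries in 8 groups were fitted with edgeR 4.0.16 (R 4.3.3), 16 residual degrees of freedom, and the interaction contrast was tested by the quasi-likelihood F test with Benjamini-Hochberg adjustment (FDR) over all genes tested. FDRs come from this fit unless the text names the 12 libraries alone or a left-out library. SEs were derived from the log2 difference and its F value. Total counts per library set the counting error, which is small beside the spread between libraries except for genes near 0.

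Within each class the 5 genes of largest difference were named, among those with at least 5 CPM in a group and over 3 counts in each group, and 2 to 4 genes of smallest FDR in each list. Nanog, Pou5f1, Gbx2, Wnt8a, Rarb, Cyp26a1, the Hoxa genes listed together and the marker genes fall outside this rule and were chosen after their values were seen. Some genes that the rule names are not reported here, although list counts include them. The members and lists were chosen with earlier results of these data known. Gene coordinates are from GENCODE vM21 (GRCm38) and promoters from RefSeq (GRCm38.p6). Alternatives were other scaling, no filter, the 12 libraries alone, a replicate block, a minimum change, DESeq2 1.42.0 and leaving out each library.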

Additional observations from a re-analysis of the deposited data

Results flagged for a closer look

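The genotypes differed in their change from ESC to NPC at 4091 genes by the interaction contrast of edgeR's quasi-likelihood test, and genes of largest difference in each class are listed here for that reason. Groups of 3 libraries are too small for a test of single outlying libraries.

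Among genes induced more in slow/slow cells the log2 differences were 4.93 for Btbd17, 4.64 for Nsg2, 4.61 for Egr2 and 4.60 for St8sia2. Among genes silenced less they were 4.40 for Nkx1-2, 4.22 for P2rx7, 3.80 for Ttn, 3.36 for Gpnmb and 3.17 for Eya1. Among genes that rose in slow/slow and fell in WT cells they were 6.87 for Vrtn, 6.09 for Rfx4, 4.36 for Efhd1, 3.77 for P2rx3 and 3.73 for Sox21.

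Among genes silenced more they were -4.35 for Ly6a, -3.48 for Lrrc34, -3.40 for Il34, -3.29 for Klk10 and -3.26 for Sox15. Among genes induced less they were -5.81 for Asb9, -3.20 for Mmp23, -3.16 for Hand1, -3.10 for Lpar3 and -3.05 for Esx1. Among genes that fell in slow/slow and rose in WT cells they were -4.26 for Krt17, -4.21 for AC125149.6, -3.50 for Col9a2, -3.33 for Fbxo36 and -2.73 for Ptrf.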

How the results depend on the processing

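The count of 4091 genes was 4163 with DESeq2 size factors, 4153 with upper-quartile scaling, 3830 without a filter, 4652 with DESeq2's Wald test and 3286 to 3725 with 1 library left out. It became 7534 with the 12 libraries alone, where the sign excess turned, and 1908 with a minimum change of 2-fold. That minimum left 5137 genes for the WT change, 5165 for the slow/slow change, 2281 between genotypes in ESCs and 3569 in NPCs. With the replicate block 4328 genes passed, 4013 of them among the 4091. Over 18 pairs of same-numbered libraries the correlation of deviations from group means ran from -0.08 to 0.07 and 0 pairs exceeded 0.1. No pairing was seen over all genes, but a shared effect on a few genes would be missed. Of 188 named genes 0 reversed under any alternative run. Of 186 tested with the 12 libraries alone, 17 gained a call and 1 lost it, and leaving out a library cost 6 to 10 calls. The cause of these shifts was not tested.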
